A study of Mus musculus with 58 samples.

Results

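The genes described here encode the receptors through which adipose stem cells (ASC) can respond to interleukin 4, interleukin 13 and the interleukin 6 family of cytokines, together with 2 of the ligands, Il6 and Lif. They were chosen by name: Il4ra, Il13ra1, Il13ra2, Il6ra, Il6st, Lifr, Osmr, Il11ra1, Il6 and Lif are 10 of the 56953 genes in the count table, and all 10 were matched by Ensembl identifier and were among the 12464 genes that had enough reads to be tested. Bulk RNA was read by Smart-seq3, which copies whole transcripts into cDNA, in 58 libraries of ASC sorted from inguinal white adipose tissue (iWAT) of C57BL6/J mice. All cells passed a CD45-/CD31-/CD34+ gate, after which the DPP4- fraction was taken as ASC1 and the DPP4+ fraction as ASC2. Males were castrated or females ovariectomized at 4 weeks of age, control mice of both sexes carried no such treatment, and all mice were terminated at 10 weeks. The groups held 7 ASC1 and 8 ASC2 libraries labelled control male, 8 and 8 labelled castrated male, 8 and 8 labelled control female, and 3 and 8 labelled ovariectomized female. The labels do not tie a library to a mouse, and for control mice they do not say whether a sham operation was done.

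Cytokines of these families signal through receptor chains that pair at the cell surface and activate Janus kinases (JAK), which phosphorylate STAT transcription factors. The interleukin 4 receptor alpha chain (Il4ra) pairs with the common gamma chain (Il2rg) or with Il13ra1, and STAT6 is the main factor downstream, whereas Il13ra2 binds interleukin 13 and is known mostly as a decoy. Most interleukin 6 family cytokines use gp130, the product of Il6st, together with a chain that gives specificity, such as Il6ra, Lifr, Osmr or Il11ra1. STAT3 is the main factor downstream, with Socs3 as a feedback inhibitor. In adipose tissue, type 2 cytokines are known for their part in tissue remodelling, and stromal cells are known as a source of interleukin 6.

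Total counts per library lay between 106566 and 1421547 (median 682423.5), so that a gene at 5 CPM rested on few reads. Values are CPM, the reads of a gene as a share of its library's TMM-scaled total. Differences are log2 fold changes with standard error (SE) from edgeR (quasi-likelihood test, 58 libraries in 1 fit), with p adjusted over all genes tested, and a gene is said to differ where its adjusted p was below 0.05. The summed level of 6 ASC2 markers, Dpp4 among them, was 344 to 586 CPM in ASC1 and 1093 to 8106 CPM in ASC2 libraries, so the populations did not overlap in them, while that of 5 ASC1 markers overlapped between the populations. Sex-chromosome transcripts went against the sex label in many libraries. Sult1e1 and C7, which are not on the sex chromosomes, followed it in control libraries. The paper proposes that androgens control both genes. Xist at 20 CPM or more under a male label, or Y-linked transcripts at 20 CPM or more under a female label, was found in 27 of 58 libraries: all 8 castrated male ASC1, 4 of 7 control male ASC1, 4 of 8 control male ASC2, 5 of 8 control female ASC1 and 6 of 8 control female ASC2. By this rule no library of castrated male ASC2 or of either ovariectomized group went against its label. In control males every library with letter A to D matched its label and every one with E to H went against it, in both populations. Control female libraries did not divide in this way. For control males letter and sex-chromosome content therefore cannot be told apart when these libraries are left out. In 7 of the 27, 4 control female and 3 control male ASC2, both kinds of transcript were at 20 CPM or more. Sult1e1 and C7, which the study's methods name as male-specific and set beside such reads, followed the label in all control libraries: in the 8 control male libraries with transcripts against their label Sult1e1 was at 22.7 to 84.3 CPM and C7 at 122 to 484 CPM, and in the 11 such control female libraries they were at most 4.84 and 20.8 CPM. The study's methods report low Ddx3y and Eif2s3y reads in female control samples and read them as weak contamination with male mRNA. From low Sult1e1 and C7 they hold that these samples can be trusted. They do not mention Xist under male labels. Whether reads or cells of other libraries were mixed in was not tested here. Groups are therefore named by their labels, and each result is given with and without those libraries where this changes it, the rest being called libraries matching their label. Without them no castrated male ASC1 library was left, so comparisons with that group have no such value. The 3 ovariectomized female ASC1 libraries stood apart in other ways. Under a female label C7 was at 50.3 to 284.5 CPM in them, while Sult1e1 was at 0 CPM. Dcn, a fibroblast matrix gene, was at 21690 to 27560 CPM in them against at most 9180 CPM in any other group, the summed level of 8 macrophage and myeloid markers was 42.3 to 99.1 CPM against at least 595 CPM elsewhere, and Fos was at 1913 to 2206 CPM.

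Compared per kilobase of exon, Il11ra1 and Il4ra were the most abundant of the 10 genes and Il6ra the least. The mean of the 8 group means was 97.5 CPM per kb for Il11ra1, 67.4 for Il4ra, 23.8 for Il6st, 8.60 for Osmr, 6.99 for Il13ra1, 3.90 for Il6, 2.90 for Lifr, 2.04 for Lif, 1.88 for Il13ra2 and 0.826 for Il6ra. The order follows exon lengths of an older annotation, and Il11ra1 has a near-identical copy, Il11ra2, so its level is uncertain. The ligands of the type 2 receptors were almost absent: Il4 had no read in any library, and Il13 had group means of at most 0.137 CPM. Osm, the ligand of Osmr, had group means of at most 3.10 CPM. In these bulk samples fewer cells of a type and less RNA per cell cannot be told apart.

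**Figure D1:**
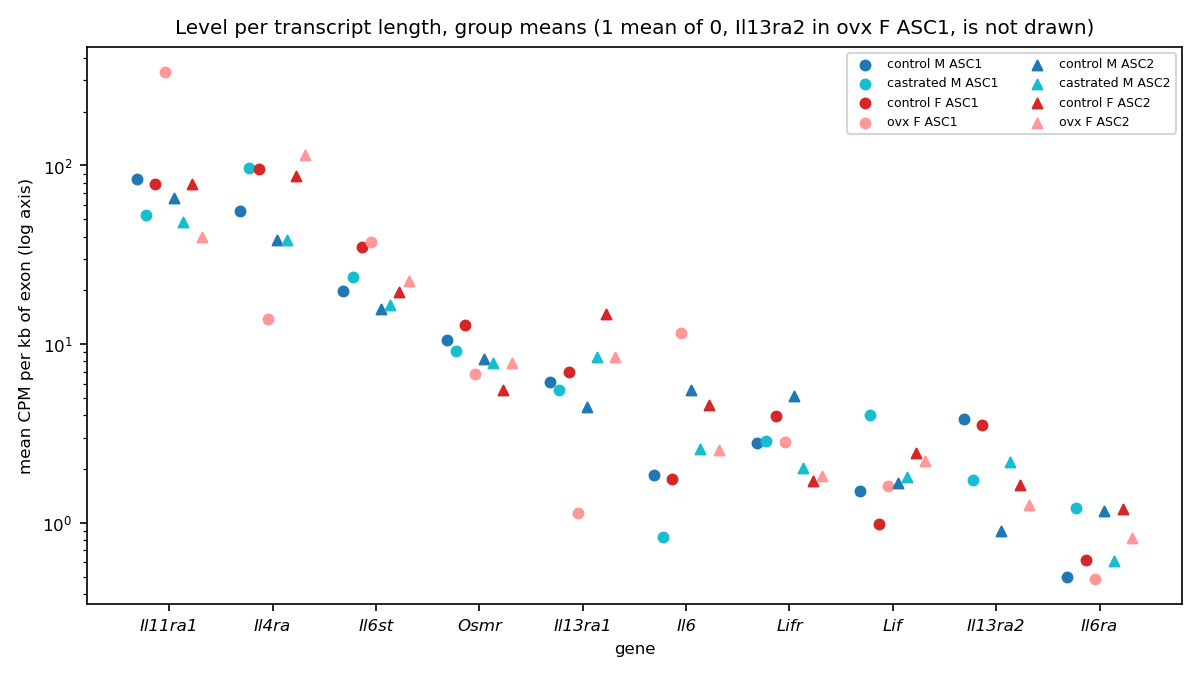
Mean CPM per kilobase of exon (log axis) for each of the 10 genes in the 8 groups, circles for ASC1 and triangles for ASC2. Il11ra1, Il4ra and Il6st lie highest, and Il11ra1 and Il4ra in the 3 ovariectomized female ASC1 libraries lie far from the other groups in opposite directions. The mean of 0 for Il13ra2 in that group is not drawn.

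Il4ra (ENSMUSG00000030748.10) was detected in every library, between 55.1 and 1170 CPM, and its spread within groups was wide. In ASC1 it lay at 199 to 495 CPM (median 334) under the control male label, 343 to 714 (median 626) under castrated male and 395 to 794 (median 511) under control female, and at 106, 55.1 and 86.7 CPM in the 3 ovariectomized female libraries. In ASC2 it lay at 143 to 295 CPM (median 238) under control male, 120 to 498 (median 201) under castrated male, 228 to 1170 (median 356) under control female and 266 to 1139 (median 684) under ovariectomized female. Ordered by median, the groups ran from ovariectomized ASC2 and castrated ASC1 down to castrated ASC2 and ovariectomized ASC1. Of the 7 steps between neighbours, only those from control male ASC1 to control male ASC2 and from castrated male ASC2 to ovariectomized female ASC1 were larger than the larger SD of the pair.

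The ASC2 libraries split into a low and a high range under both female labels. Libraries I, J, K and L of ovariectomized female ASC2 were at 987, 1139, 1034 and 1001 CPM, and libraries M, N, O and P at 370, 381, 314 and 266 CPM. Il6st split in the same libraries, at 359, 344, 331 and 324 CPM against 161, 192, 156 and 146 CPM. Krt18, a keratin of mammary and other epithelium, was at 4.94 to 12.6 CPM in the former and 160 to 428 CPM in the latter, and Saa3, an acute phase gene, at 141 to 221 CPM against at most 9.16 CPM. The split followed the order of the letters. Total counts were 595579 to 1118901 in libraries I to L and 106566 to 875300 in libraries M to P. Whether letter order, depth or epithelial RNA bears on the Il4ra values was not tested. In control female ASC2, libraries C and D were at 963 and 1170 CPM and the other 6 at 228 to 564 CPM. Saa3 was at 139.6 and 442.5 CPM in C and D against at most 11.1 CPM in the others, and Acta2, a smooth muscle actin, at 1089 and 1364 CPM against at most 448 CPM. C and D were also the only libraries of that group whose sex-chromosome transcripts matched the label.

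**Figure D2:**
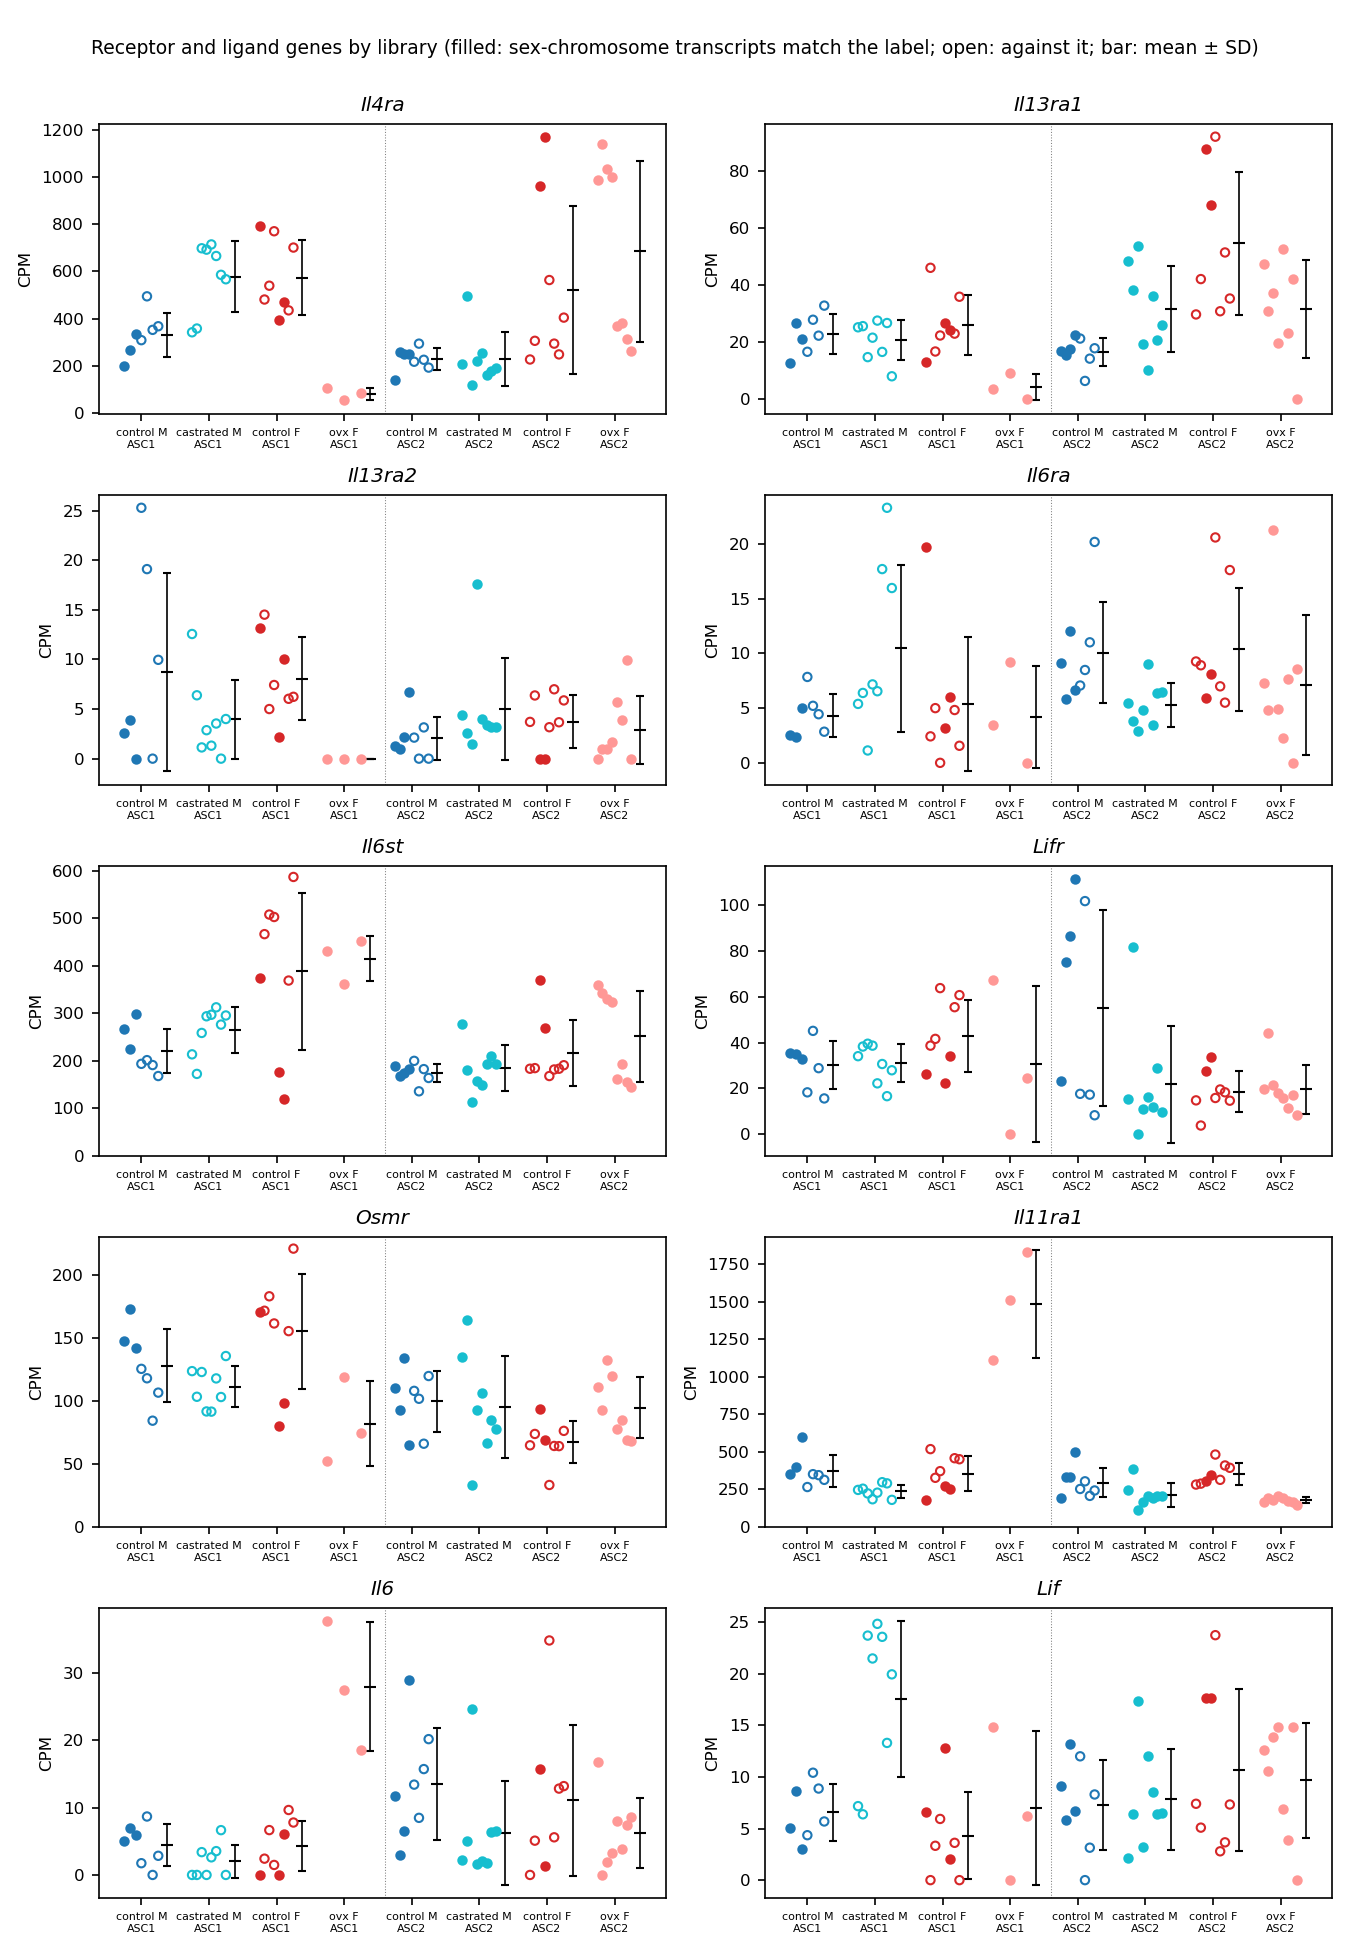
CPM of each gene in each library, by group, with mean and SD; filled points are libraries whose sex-chromosome transcripts match the label and open points those against it. Il4ra reaches 963 to 1170 CPM in 2 control female and 4 ovariectomized female ASC2 libraries, and Il13ra1 in control male ASC2 lies below every control female ASC2 library.

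Between control males and control females the question was which genes differ by sex. In ASC1 none of the 10 genes passed the test, 2 had an unadjusted p below 0.05 by edgeR and DESeq2 called 1 (Il6st), where 0.289% of all genes were called. In ASC2, where 6.5% of all genes were called, Il4ra and Il13ra1 were lower and Lifr was higher under the male label, 3 of 10. The log2 fold change of Il4ra was -1.19 (SE 0.29, adjusted p = 0.00654), a 2.28-fold difference, with medians of 238 and 356 CPM. It was -2.22 (adjusted p = 0.0087) on the libraries that matched their label, where 2.59% of all genes were called. That leaves 4 male libraries and, as females, C and D alone, which had the highest Il4ra of their group. The larger value therefore rests on these libraries, which also raise the female mean in the fit of all libraries. The study had singled out Il4ra in other mice, so it was not an unselected gene here.

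Il13ra1 (ENSMUSG00000017057.10), an X-linked gene whose product completes the type II receptor with Il4ra, lay at 6.36 to 22.3 CPM (median 17.2) in control male ASC2 and 29.6 to 91.9 CPM (median 46.7) in control female ASC2. The ranges did not overlap, and the log2 fold change was -1.70 (SE 0.29, adjusted p = 9.97e-05). It was -2.10 (adjusted p = 0.0143) on libraries matching their label. A two-sided exact permutation test of mean log2(CPM + 1) gave p = 0.000155, the smallest that 8 against 8 libraries allow. In castrated male ASC2 Il13ra1 lay at 10.04 to 53.7 CPM (median 30.9) and in ovariectomized female ASC2 at 0 to 52.7 CPM (median 33.9), between the control groups and overlapping both.

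The proximal promoters of these 2 genes, which moved together by sex label in ASC2, were searched for hormone and STAT motifs, with that of Socs3, a textbook STAT target, beside them. Sequences are from RefSeq on GRCm38.p6, an older build than the one the authors aligned to. Each runs 5′ to 3′ on the strand of the gene, from 250 bases before its start to 50 bases from there on. Capitals mark the reverse complement of GGTCA, the core of estrogen response elements, in Il4ra (chr7:125552021-125552320, + strand), AGAACA, the core of androgen response elements, in Il13ra1 (chrX:36111858-36112157, + strand), and TTCNNNGAA, a STAT site, in Socs3 (chr11:117969317-117969616, - strand).
Il4ra: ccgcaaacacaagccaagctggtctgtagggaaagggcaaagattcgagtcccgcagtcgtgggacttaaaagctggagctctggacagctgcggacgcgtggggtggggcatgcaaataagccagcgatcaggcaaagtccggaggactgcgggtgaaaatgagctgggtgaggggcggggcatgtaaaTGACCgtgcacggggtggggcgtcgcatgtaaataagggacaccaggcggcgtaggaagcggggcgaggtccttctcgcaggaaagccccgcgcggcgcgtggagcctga
Il13ra1: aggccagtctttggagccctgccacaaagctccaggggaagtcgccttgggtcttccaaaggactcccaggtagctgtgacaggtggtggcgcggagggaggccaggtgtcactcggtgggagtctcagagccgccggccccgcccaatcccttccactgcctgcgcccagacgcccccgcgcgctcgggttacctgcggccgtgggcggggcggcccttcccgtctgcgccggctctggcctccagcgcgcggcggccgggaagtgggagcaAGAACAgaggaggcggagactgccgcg
Socs3: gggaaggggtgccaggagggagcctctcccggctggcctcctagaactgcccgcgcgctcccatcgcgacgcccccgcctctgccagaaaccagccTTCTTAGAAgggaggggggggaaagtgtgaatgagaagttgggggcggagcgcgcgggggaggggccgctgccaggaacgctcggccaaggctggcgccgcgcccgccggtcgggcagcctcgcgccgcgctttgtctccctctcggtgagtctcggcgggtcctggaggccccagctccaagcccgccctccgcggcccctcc
Searched on both strands of all 32851 promoter entries, GGTCA was found in 40.5%, AGAACA in 19% and TTCNNNGAA in 8.3% of them. Among the 10 genes, which had 12 entries, GGTCA was in Il4ra, Il13ra2, Il6st and Lifr, AGAACA in Il13ra1 and TTCNNNGAA in none. A STAT site with a wider spacer was in 6.95% of entries and in none of the 10 genes, and the full palindromic androgen and estrogen response elements, which contain the cores, were in 0.00913% and 0.07% and in none of the 10 genes. A match describes the letters in this window and nothing more.

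Il13ra2 (ENSMUSG00000031289.11), also on X, was low in all groups. Its median was 3.91 CPM in control male, 6.83 in control female and 3.20 in castrated male ASC1, and 1.71, 3.69, 3.33 and 1.30 CPM in control male, control female, castrated male and ovariectomized female ASC2. It had no read in 12 of 58 libraries.

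Among the receptors of the interleukin 6 family, Il6st (ENSMUSG00000021756.13), the shared chain, was the most evenly expressed after Osmr. In ASC1 it lay at 168 to 299 CPM (median 201) under control male, 172 to 313 (median 285) under castrated male and 120 to 587 (median 420) under control female, and at 432, 363 and 452 CPM in the ovariectomized libraries. In ASC2 it lay at 136 to 200 CPM (median 179), 113 to 278 (median 187), 168 to 370 (median 184) and 146 to 359 (median 258) in the same order of labels. No 2 neighbouring groups in the order of medians differed by more than their larger SD. Within control female ASC1 the spread was wide, and the 2 lowest libraries, E and F at 177 and 120 CPM, matched their label. The difference between control male and female ASC1 was -0.81 (SE 0.22, adjusted p = 0.120) and had the opposite sign, 0.27 (adjusted p = 0.877), on libraries matching their label.

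Osmr (ENSMUSG00000022146.13), the chain for oncostatin M, lay at 84.4 to 173 CPM (median 126) in control male ASC1 and 80.3 to 221 (median 166) in control female ASC1. In castrated male ASC1 it lay at 91.6 to 136 CPM (median 111), and in the 3 ovariectomized libraries at 52.6, 119 and 74.3 CPM. In ASC2 it lay at 64.7 to 134 CPM (median 105) under control male, 33.4 to 164 (median 88.6) under castrated male, 33.3 to 93.4 (median 67.0) under control female and 68.5 to 133 (median 88.9) under ovariectomized female. All neighbouring groups overlapped.

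Lifr (ENSMUSG00000054263.13), the chain for leukaemia inhibitory factor, split within control male ASC2. Libraries B, C, D and F were at 75.3, 86.8, 112 and 102 CPM and libraries A, E, G and H at 23.4, 17.7, 17.3 and 8.31 CPM. In control female ASC2 it lay at 3.82 to 33.9 CPM (median 17.1), in castrated male ASC2 at 0 to 81.6 (median 13.7) and in ovariectomized female ASC2 at 8.57 to 44.2 (median 17.7). The high control male libraries stood above every control female and ovariectomized one, and the low ones lay within their range. The log2 fold change of control male against control female ASC2 was 1.51 (SE 0.44, adjusted p = 0.0269). It was 1.28 (adjusted p = 0.404) on libraries matching their label, and the permutation test gave p = 0.0549. Ovariectomized female against control male ASC2 gave -1.31 (SE 0.45, adjusted p = 0.0311) and castrated against control male ASC2 -1.25 (SE 0.44, adjusted p = 0.0682), with the same control libraries in all 3 comparisons. On libraries matching their label these were -1.76 (adjusted p = 0.0168) and -1.70 (adjusted p = 0.0381).

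The comparison of castrated with control males asks what loss of the testes changes. In ASC1, where 2.36% of all genes were called, no member passed edgeR's test, 4 had an unadjusted p below 0.05, and DESeq2 called none. A fit of only these 2 groups called 3 of 9 members tested, Il4ra among them (0.81, adjusted p = 0.0149), where 5.36% of all genes were called, and exact permutation tests gave p = 0.00124 for Il11ra1, 0.00404 for Il4ra and 0.00559 for Lif. Il4ra was 0.80 higher on the log2 scale under the castrated label (SE 0.30, adjusted p = 0.173). All 8 castrated ASC1 libraries carried Xist at 51.9 to 118 CPM and Y-linked transcripts at 0 to 4.72 CPM, the pattern of a female label. In ASC2, where 6.96% were called, Il13ra1 rose, by a log2 fold change of 0.91 (SE 0.30, adjusted p = 0.0497), and was the only gene of the 10 to pass. The call was lost on libraries matching their label (0.84, adjusted p = 0.204), where Lifr passed in its place. Il4ra did not differ beyond its error in ASC2 (0.01, SE 0.29, adjusted p = 0.994, 95% interval -0.56 to 0.57), and Il11ra1 had -0.45 (SE 0.19, adjusted p = 0.145). Castrated ASC2 libraries carried macrophage and myeloid markers at a summed 1400 to 6838 CPM against 752 to 2074 CPM in control male ASC2, and their part in the Il13ra1 value was not tested. No member had a castration effect that differed between ASC2 and ASC1 by edgeR, where 2.41% of all genes were called; 5 had an unadjusted p below 0.05 and DESeq2 called none.

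Castrated males were also set against control females. In ASC1, where 2.07% of all genes were called, Lif rose, and in ASC2, where 1.41% were called, Il4ra and Il11ra1 were lower. Lif (ENSMUSG00000034394.15), the ligand of Lifr, lay at 6.39 to 24.9 CPM (median 20.7) in castrated male ASC1 and at 0 to 12.9 (median 3.48) in control female ASC1, with a log2 fold change of 1.92 (SE 0.49, adjusted p = 0.0209). Castrated libraries K to P, at 13.3 to 24.9 CPM, stood above all control female ones, whereas I and J, at 7.18 and 6.39 CPM, did not. The castrated ASC1 libraries carried Xist at 51.9 to 118 CPM and Y-linked transcripts at 0 to 4.72 CPM. Of the 8 control female ASC1 libraries, 5 carried Y-linked transcripts at 20 CPM or more. Sex-chromosome content therefore did not follow the labels in this comparison. In the other 6 groups the medians of Lif were 5.69 CPM (control male ASC1), 6.19 (ovariectomized female ASC1), 7.50 (control male ASC2), 7.37 (control female ASC2), 6.43 (castrated male ASC2) and 11.6 (ovariectomized female ASC2). In ASC2 the log2 fold change of Il4ra was -1.18 (SE 0.29, adjusted p = 0.0184) and that of Il11ra1 -0.71 (SE 0.19, adjusted p = 0.0399). On libraries matching their label the former was -2.18 (adjusted p = 0.00238) and the latter -0.56 (adjusted p = 0.416). As control females this leaves libraries C and D alone, whose Il4ra at 963 and 1170 CPM was the highest of that group. These comparisons share their control libraries with those by sex above.

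Ovariectomy was compared with control females to ask what loss of the ovaries changes. In ASC2, where 2.09% of all genes were called, Il11ra1 (ENSMUSG00000073889.11), the interleukin 11 chain, fell. It lay at 146 to 206 CPM (median 176) in ovariectomized and 282 to 482 CPM (median 328) in control female ASC2, and all 8 ovariectomized libraries were below all 8 control ones. The log2 fold change was -0.97 (SE 0.19, adjusted p = 0.00195), and the exact permutation test gave p = 0.000155. Without the 6 control female libraries against their label it was -0.82 (adjusted p = 0.704), in a fit with 2 control libraries left that called 2 of 11851 genes (0.0169%). Markers of other cells moved in the same comparison, with medians of 1862 against 406 CPM for 5 mural markers and 251.4 against 16.2 CPM for mammary epithelium, as did immediate early genes, with 677 against 2257 CPM, and their part was not tested. Il4ra had a log2 fold change of 0.41 (SE 0.28, adjusted p = 0.596) with all libraries and -0.60 (adjusted p = 1.00) on those matching their label.
Il11ra1 lay at 191 to 497 CPM (median 278) in control male ASC2 and 113 to 386 (median 204) in castrated male ASC2. In ASC1 it lay at 265 to 599 CPM (median 349) in control males, 177 to 518 (median 349) in control females and 180 to 297 (median 237) in castrated males.

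Against control male ASC2, where 18.3% of all genes were called, ovariectomized female ASC2 had 4 of the 10 genes called. Il4ra was higher by 1.60 (SE 0.29, adjusted p = 5.86e-05) and Il13ra1 by 1.04 (SE 0.30, adjusted p = 0.00988), while Lifr (given above) and Il11ra1 (-0.71, SE 0.19, adjusted p = 0.00626) were lower. On libraries matching their label Il4ra, Lifr and Il11ra1 still passed and Il13ra1 did not (0.96, adjusted p = 0.0927). Il6st, at 0.55 (SE 0.22, adjusted p = 0.0648), did not pass, and DESeq2 called it. Mural markers summed to 826 to 2056 CPM in ovariectomized female ASC2 and 84.8 to 766 CPM in control male ASC2, mammary epithelium markers had medians of 251.4 and 20.2 CPM and immediate early genes of 677 and 1729 CPM. Their part in these values was not tested.

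**Figure D3:**
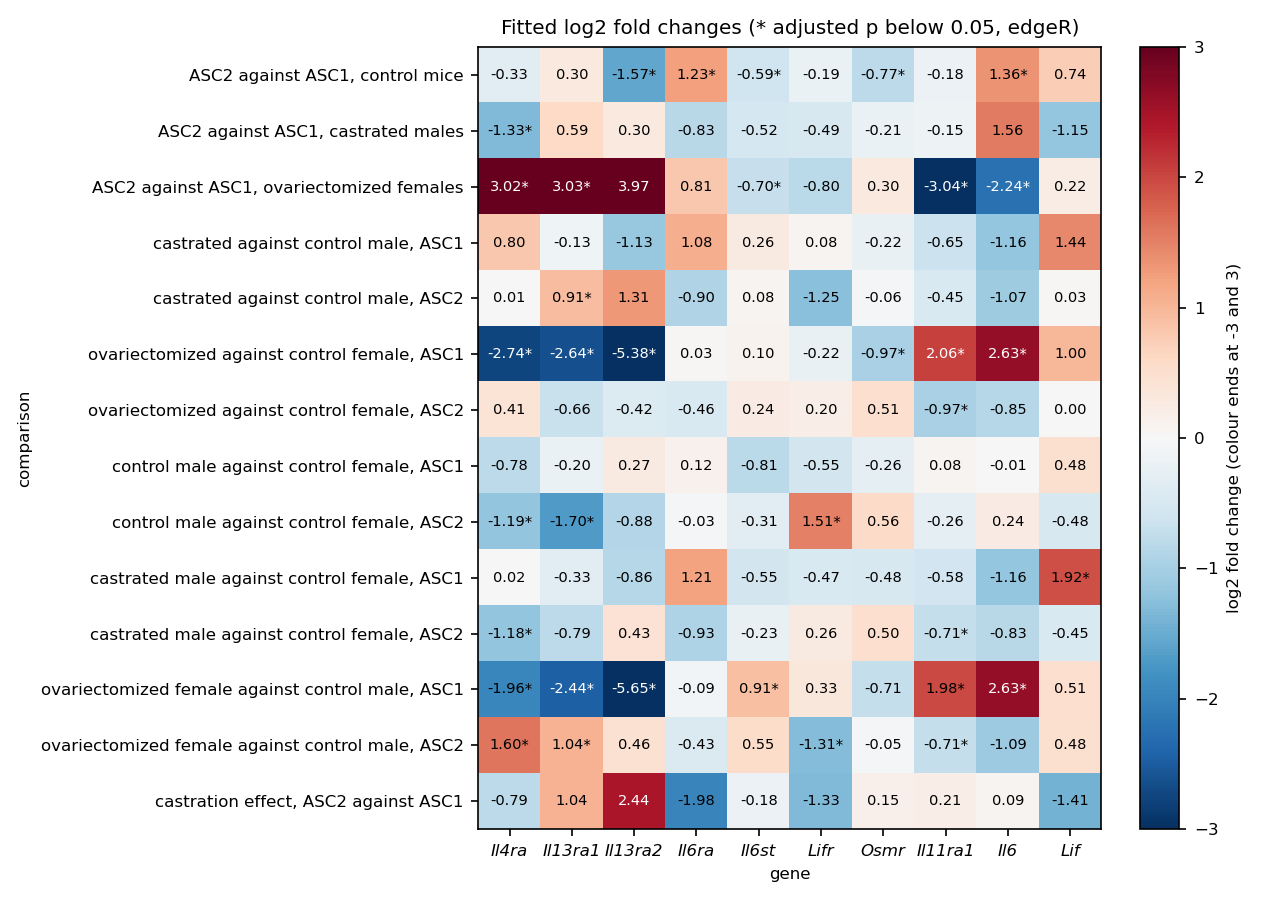
Log2 fold change of each of the 10 genes (columns) in the 14 comparisons (rows), with an asterisk where the adjusted p was below 0.05 by edgeR; values for Il13ra2 in rows with ovariectomized female ASC1 are fitted against 3 libraries without a read and give no size. Il4ra is lower under male labels in ASC2 (-1.19 and -1.18) and higher in ovariectomized female than in control male ASC2 (1.60).

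The 3 ovariectomized female ASC1 libraries differed from all others over much of the transcriptome. The study had removed samples below 8500 detected genes, which left 3 in this group. Libraries L, N and P detected 11634, 9698 and 9122 genes at totals of 1114334, 256565 and 188599 counts. For comparison, control male ASC1 library E detected 14549 at 1133362 counts and castrated male ASC1 library P 11674 at 235104. The part of this in the values below was not tested. Of all genes, 34.8% were called against control female ASC1, 35.6% against control male ASC1 and 35.4% against ovariectomized female ASC2, and the median log2 fold change of all genes was -0.34, -0.34 and 0.37. Of the 10 members 6, 6 and 5 were called, and the same 3 libraries enter all 3 counts. Il4ra at 55.1 to 106 CPM was below every other library of ASC1 and had a log2 fold change of -2.74 (SE 0.48, adjusted p = 8.72e-06) against control female ASC1, or -2.40 relative to the median shift. Il13ra1 was at 3.43, 9.18 and 0 CPM against 13.1 to 46.0 CPM, with -2.64 (SE 0.66, adjusted p = 0.00122), or -2.30 relative to the shift. Il11ra1 was at 1114, 1510 and 1833 CPM against 177 to 518 CPM, with 2.06 (SE 0.24, adjusted p = 5.41e-10), or 2.40 relative to the shift. Il6, at 37.7, 27.5 and 18.6 CPM against 0 to 9.65 CPM, had 2.63 (SE 0.77, adjusted p = 0.00579).
Osmr had -0.97 (SE 0.32, adjusted p = 0.0154), or -0.63 relative to the shift, and passed neither on libraries matching their label (-0.50, adjusted p = 0.392) nor without library L (-0.69, adjusted p = 0.193). Il13ra2 had 0 reads in the 3 libraries and 32 in control female ASC1. With 3 counts over the group as the floor, control female ASC1 was at least 2.82-fold higher and control male ASC1 at least 3.99-fold higher, which covers counting error only. Library L held most of the reads of the group: without it 2 of the 6 calls against control females, 2 of the 6 against control males and 3 of the 5 against ovariectomized ASC2 were kept, while the share of all genes called fell to 18.7%, 20.2% and 20.5%. Il4ra and Il11ra1 were among those kept each time. Markers of other cells moved with these values, and their part was not tested: Adgre1, a macrophage gene, and all 5 mammary epithelium markers had no read in the 3 libraries, and the summed immediate early genes were at 3133 to 4394 CPM against 243 to 452 CPM in control female ASC1. Against control male ASC1, Il6st also differed (0.91, SE 0.29, adjusted p = 0.0106), but on libraries matching their label neither it (0.66, adjusted p = 0.165) nor Il6 (2.23, adjusted p = 0.0835) nor Il13ra2 passed.

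Between the populations in control mice the question was how ASC2 differ from ASC1. With all libraries, 5 of the 10 genes were called where 17.9% of all genes were: Osmr (-0.77, SE 0.15, adjusted p = 0.000113), Il6st (-0.59, SE 0.15, adjusted p = 0.00434) and Il13ra2 (-1.57, SE 0.49, adjusted p = 0.0173) were lower in ASC2, and Il6ra (1.23, SE 0.35, adjusted p = 0.0084) and Il6 (1.36, SE 0.44, adjusted p = 0.0246) higher. On libraries matching their label, where 3.57% of all genes were called, none of these 5 calls was kept, with Osmr at -0.55 (adjusted p = 0.307), Il6st at -0.02 (adjusted p = 0.986), Il13ra2 at -2.60 (adjusted p = 0.185), Il6ra at 0.60 (adjusted p = 0.641) and Il6 at 1.43 (adjusted p = 0.361). Il4ra had -0.33 (SE 0.21, adjusted p = 0.285) with all libraries and 0.33 (adjusted p = 0.655) on those. Libraries matching their label numbered 3 and 3 in ASC1 and 4 and 2 in ASC2 of control males and females.

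Il6 (ENSMUSG00000025746.12) had a median of 5.09 CPM in control male, 4.22 in control female and 1.31 in castrated male ASC1, and 12.6, 9.21, 3.65 and 5.64 CPM in control male, control female, castrated male and ovariectomized female ASC2. Il6ra (ENSMUSG00000027947.12), the chain for interleukin 6 itself, had medians between 3.43 and 8.78 CPM over the 8 groups. Both rested on few reads, and Il6 had none in 9 of 58 libraries. The summed level of 12 immediate early and dissociation genes was 279 to 636 CPM in control male ASC1 and 1208 to 2648 CPM in control male ASC2, and 243 to 452 against 557 to 4515 CPM in control females. Their part in the Il6 difference was not tested.

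In castrated males, where 9.09% of all genes were called between ASC2 and ASC1, only Il4ra of the 10 passed, at -1.33 (SE 0.29, adjusted p = 0.00131). All castrated ASC1 libraries carried Xist and all castrated ASC2 libraries Y-linked transcripts at 55.9 to 100 CPM, so population and sex-chromosome content cannot be told apart there. Macrophage and myeloid markers summed to 1400 to 6838 CPM in castrated ASC2 and 661 to 983 CPM in castrated ASC1, and immediate early genes to 364 to 1594 and 147 to 260 CPM, and their part in the Il4ra value was not tested. In ovariectomized females the 5 called were Il4ra (3.02, SE 0.49, adjusted p = 1.63e-06) and Il13ra1 (3.03, SE 0.65, adjusted p = 0.00018), higher in ASC2, and Il11ra1 (-3.04, SE 0.24, adjusted p = 7.39e-16), Il6 (-2.24, SE 0.75, adjusted p = 0.0161) and Il6st (-0.70, SE 0.29, adjusted p = 0.049), lower. With libraries against their label left out of the fit the other 4 still passed and Il6st did not (-0.71, adjusted p = 0.0548). With sex and library letter together as a block Il13ra1 (adjusted p = 0.0883) and Il6 (adjusted p = 0.0656) did not pass, where 23.7% of all genes were called.

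**Figure D4:**
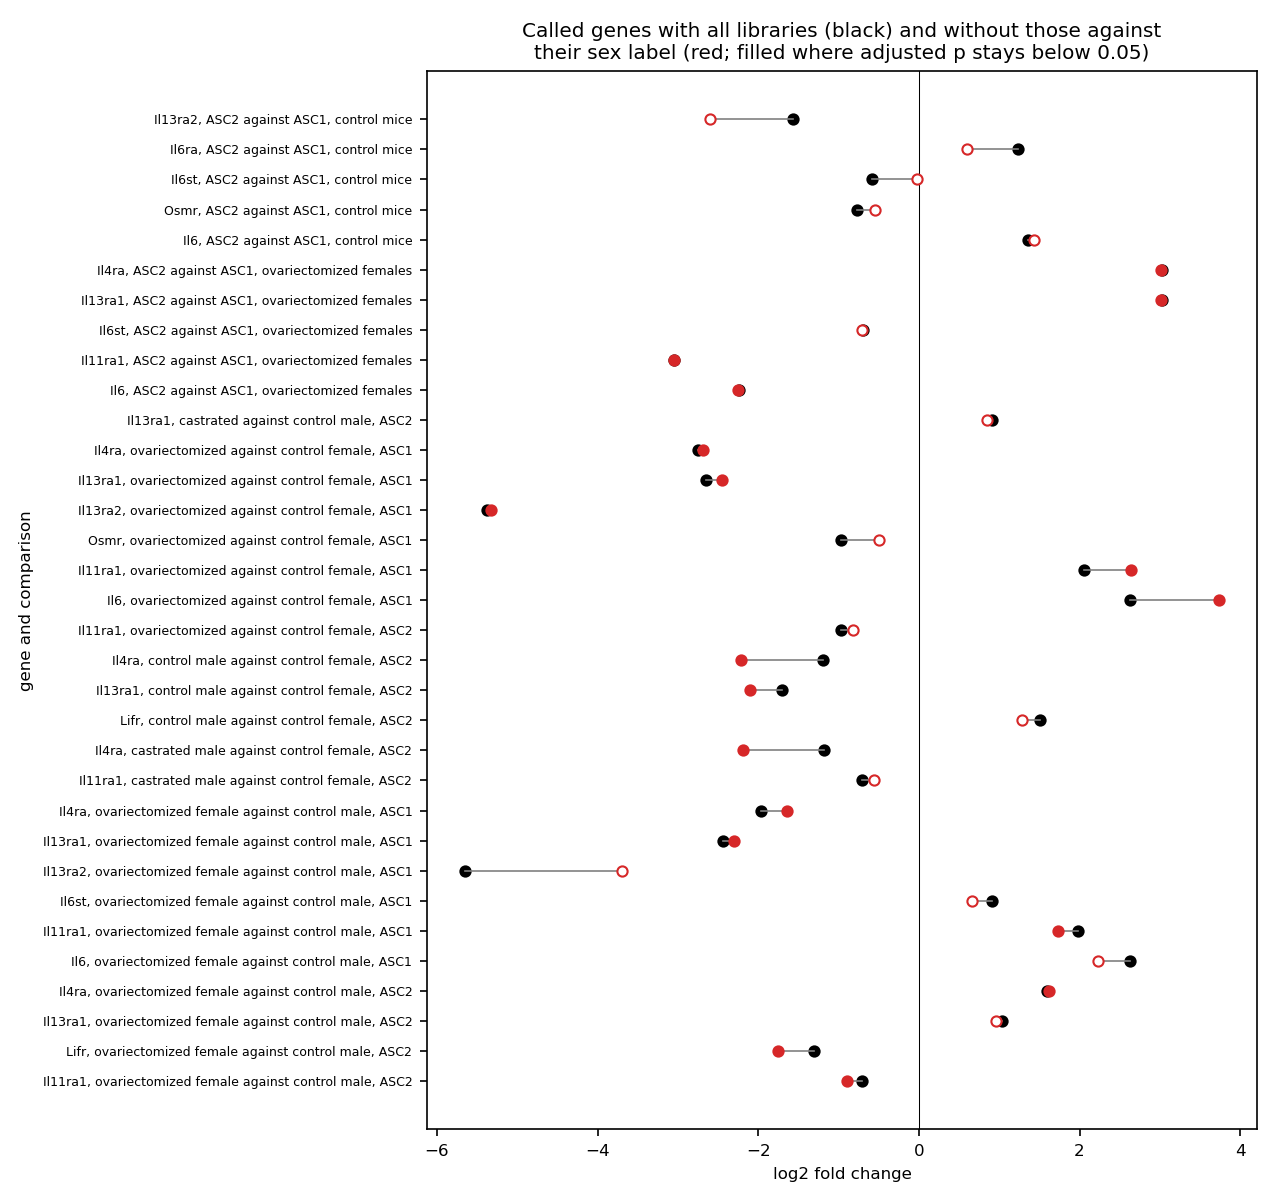
Log2 fold change of each called gene and comparison with all libraries (black) and without the 27 libraries against their sex label (red, filled where the adjusted p stayed below 0.05); comparisons with castrated male ASC1 have no such value. Of 33 called values 18 stayed called, and all 5 of ASC2 against ASC1 in control mice were lost, where the share of all genes called fell from 17.9% to 3.57%.

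Other genes of the pathways comprised 65 ligands, receptors, kinases, transcription factors, inhibitors and response genes, of which 51 were tested. Their signalling genes were well detected. Group means were 140 to 260 CPM for Jak1, 124 to 185 CPM for Stat6, 73.2 to 180 CPM for Stat3 and 42.1 to 121 CPM for Socs3. Jak1 did not pass in any of the 14 comparisons, Stat6 passed only in ovariectomized female against control male ASC2 (-0.38, SE 0.14, adjusted p = 0.042), and Socs3 only in ovariectomized female against control male ASC1 (1.05, SE 0.41, adjusted p = 0.0376).
Between ASC2 and ASC1 of control mice 3 of the 51 were higher and 13 lower, where 17.9% of all genes were called. Stat3 was lower in ASC2 (-0.62, SE 0.13, adjusted p = 0.000199), as were the acute phase genes Hp (-3.57), Saa3 (-3.06) and Lcn2 (-2.05), the kinase Jak3 (-1.72) and Arg1 (-1.58), an arginase induced by type 2 cytokines in macrophages. On libraries matching their label 2 of the 51 were called, near the 3.57% of all genes. In castrated males 2 were higher and 5 lower in ASC2, beside 9.09% of all genes, with Stat3 at -0.77 (SE 0.17, adjusted p = 0.00177), Saa3 at -3.76, Arg1 at -3.01, Cebpb at -2.05, and Mrc1, a macrophage mannose receptor, and Il2rg, the common gamma chain that immune cells express, at 2.40 and 1.904.

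By sex label in ASC2, 2 of the 51 genes were higher in males and 6 lower, beside 6.5% of all genes. Saa3 (-4.21), Retnla (-3.24), Tgm2 (-2.03) and Clcf1 (-1.49), an interleukin 6 family ligand, were lower and Cntf (2.85), another such ligand, higher under the male label. In ASC1 only Ccl11, the eotaxin gene, passed (1.70, SE 0.41, adjusted p = 0.0445). It was not called on libraries matching their label. Castrated against control males had none of 51 called in ASC1 by edgeR, with 13 at an unadjusted p below 0.05. DESeq2 also called none there. In ASC2 3 of the 51 were higher and 1 lower, beside 6.96% of all genes. Clcf1 (1.77), Ptpn6 (1.69) and Timp1 (1.06) were the higher ones, and Clcf1 (2.92), Ptpn6 (2.90) and Mrc1 (3.13) had a castration effect that differed between the populations. On libraries matching their label fewer of the 51 were called by sex label in ASC2 and in castrated against control male ASC2. Which of the named genes stayed called is not reported here. Ovariectomized against control female ASC2 had only Retnla (-2.97, SE 0.73, adjusted p = 0.0136), which was not called on libraries matching their label. Ovariectomized female against control male ASC2 had 11 higher and 5 lower, beside 18.3% of all genes. Among them were Saa3 (4.57), Arg1 (2.73), Il11 (2.24), Clcf1 (1.62) and Stat3 (0.62, SE 0.18, adjusted p = 0.00881).
Castrated males against control females had Lcn2 (-4.44) and Mrc1 (-2.19) lower in ASC1 and Retnla (-2.76) and Tgm2 (-1.93) in ASC2. The 3 ovariectomized ASC1 libraries had 23 of 51 called against control females (5 higher, 18 lower), 19 against control males (6 higher, 13 lower) and 19 against ovariectomized ASC2, with 13 higher and 6 lower in ASC2. Of all genes 34.8%, 35.6% and 35.4% were called, and against control females 1584 were higher and 2752 lower, so that 19 of 51 is near the share of all genes. Timp1, a protease inhibitor gene that was singled out after its values were seen, was at 86.6 ± 40.6 CPM (SD, n = 3) there against 2663 ± 1003 CPM in control female ASC1 (n = 8), and Stat3 had -1.21 (SE 0.27, adjusted p = 0.000357). Il11 had no read in the 3 libraries and was chosen to be named in the same way.

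Over the 58 libraries the 10 genes did not move as a block. Between pairs of them Pearson's r of log2(CPM + 1) lay between -0.40 and 0.51, with Il6st and Osmr the most alike. The genes most like Il4ra were Gng12 (r = 0.84), Adam9 (0.83), Gadd45g (0.82), Hk1 (0.79) and Vgll3 (0.79), and after the group means had been removed r was 0.52 to 0.81 for these 5. For Il6st they were Cpxm1 (0.90), Igfbp3 (0.89), Tmem176b (0.85), Svep1 (0.85) and Scarb2 (0.84), and for Osmr Efemp2 (0.81), Colec12 (0.78), Bgn (0.77), Lrp1 (0.77) and App (0.76). Il11ra1 was most like Col3a1 (0.84), Fmo1, Gstm2, Entpd2 and Cd9 (0.82 to 0.80), and within groups r was 0.32 to 0.53 for these. For Il13ra1 (Pxn, Ddx54, 1110008P14Rik, Gdf11 and Ctcf) and Lifr (Pdia6, B4galt1, Nup98, Fnbp1 and Igsf3) the highest r was 0.74 and 0.72. The libraries share depth, plate and, in part, mice, so these values are descriptions over 10542 genes with a mean of at least 5 CPM.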

How the data were processed

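The authors deposited estimated counts per gene for 58 Smart-seq3 libraries, made with Salmon (1.9.0) on GRCm39; STAR (2.7.10a) is also in the submitters' processing notes. Of the nonzero values 15.0% were not whole, and all were rounded. Symbols were matched by Ensembl identifier to an older annotation (Gencode vM21, GRCm38). Groups came from the labels, and libraries were named by the letter in their label.

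The 12464 genes that reached 5 reads in over 3 libraries were fitted with edgeR (4.0.16, R 4.3.3; TMM scaling, quasi-likelihood test, 8 group coefficients), and p was adjusted by Benjamini-Hochberg over all of them. The biological coefficient of variation was 35.6%. No 2 libraries of a group agreed within sampling noise. Since the labels name no mouse per library, p-values measure the spread between libraries, which may in part be technical. The study's methods give 8 mice for each sex and treatment, so ASC1 and ASC2 libraries may share mice. The main fit treated them as independent. All libraries came from 1 plate, and no batch is labelled. Control libraries carried letters A to H, and castrated and ovariectomized ones I to P. If the letters stand for plate rows, row and surgery cannot be told apart. Single values were also tested by two-sided exact permutation of mean log2(CPM + 1). limma (3.58.1) and DESeq2 (1.42.0) were alternatives, and the code was tested on simulated data. The limma voom fit used a correlation of 0.0522 between libraries of the same sex and letter, taken there as a presumed mouse. Libraries went against their sex label where Xist or summed Y-linked transcripts reached 20 CPM under the other label. This reading of the labels was used only to leave libraries out, never to move them to another group.

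The 10 genes, the 65 other pathway genes and the marker lists were chosen with earlier results of these data known. Named were all 10 members and, of the pathway, up to 5 called genes per comparison by size of change, with Socs3, Stat3, Stat6 and Jak1. Likeness was Pearson's r of log2(CPM + 1). Some pathway genes that this rule would name are not reported here by name.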

Additional observations from a re-analysis of the deposited data

Results flagged for a closer look

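In 12 of 70 gene and group combinations with 4 to 10 libraries the highest library stood apart from the rest by Dixon's criterion. Normally distributed values meet it by chance in about 1 in 20 groups. CPM on a linear scale need not be normally distributed, so that share is only a guide. In castrated male ASC2, library J had Il4ra at 498 CPM, with the next library at 256 CPM, and also Lifr at 81.6 CPM. Library L of that group had Il13ra2 at 17.6 CPM, and library K had Il6 at 24.7 CPM. In control males, library D had Il11ra1 at 599 CPM in ASC1 and at 497 CPM in ASC2, and Il13ra2 at 6.69 CPM in ASC2, while library H had Il6ra at 20.2 CPM in ASC2. In control females, library A had Il6ra at 19.7 CPM in ASC1 and library E had Il6 at 34.8 CPM in ASC2. In ovariectomized female ASC2, library K had Il6ra at 21.3 CPM and library J had Lifr at 44.2 CPM.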

How the results depend on the processing

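Of the 35 called values of the 10 genes, all 35 stayed called with RLE size factors, with edgeR's own expression filter, with robust estimation and with DESeq2. With library size only 32 did, with no filter 33, in fits of only the groups compared 29, with limma voom 28, and by the permutation test 25 of 30. Without the 27 libraries against their sex label 18 of 33 did; called members then numbered 0 between ASC2 and ASC1 of control mice (5 with all libraries), 0 in ovariectomized against control female ASC2 (1), 1 in castrated male against control female ASC2 (2) and 3 in ovariectomized female against control male ASC1 (6). The shares of all genes called moved from 17.9% to 3.57%, 2.09% to 0.0169%, 1.41% to 1.42% and 35.6% to 26.5% in these comparisons. Pathway genes called fell to 2 (from 16) between ASC2 and ASC1 of control mice, 2 (4) in castrated against control male ASC2, 0 (1) in ovariectomized against control female ASC2, and 0 (1) and 5 (8) by sex label in ASC1 and ASC2. The log2 fold change of Il4ra changed sign to 0.33 between ASC2 and ASC1 of control mice and to -0.60 in ovariectomized against control female ASC2, and that of Il6st to 0.27 by sex label in ASC1. Il4ra in castrated against control male ASC2, close to 0 throughout, was -0.073 by limma and -0.090 by the permutation test. The cause of these changes was not tested.

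Leaving out each ovariectomized female ASC1 library in turn gave 2 to 6 members and 13 to 22 pathway genes against control females, 2 to 7 and 12 to 18 against control males, and 3 to 4 and 11 to 19 against ovariectomized ASC2; the lowest counts were all without library L. Against control females 18.7%, 32.2% and 33.6% of all genes were called without L, N and P. The shares were 20.2%, 32.8% and 34.2% against control males, and 20.5%, 32.6% and 33.3% against ovariectomized ASC2. Leaving out all 3, an alternative chosen after seeing the data, gave 0 pathway genes by sex label in ASC1 and 5 (3) for the castration effect between populations. Of all genes 0.258% and 2.56% were called there.

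Fits of only the groups compared called 3 members and 6 pathway genes in castrated against control male ASC1 (none with all libraries), 0 and 1 in castrated against control male ASC2, and 0 and 1 in castrated male against control female ASC2. They called 2 pathway genes in ovariectomized against control female ASC2, 0 and 5 by sex label in ASC1 and ASC2, and 4 in castrated male against control female ASC1. Their shares of all genes called were 5.36%, 2.69%, 0.718%, 1.69%, 0.409%, 3.31% and 4.08% in the order given. DESeq2 called 2 members in castrated against control male ASC2, 1 by sex label in ASC1, and 6 pathway genes for the castration effect between populations. It called 8.82%, 0.433% and 3.23% of all genes there. With limma voom members numbered 0 in castrated against control male ASC2 and 1 in castrated male against control female ASC2, beside 6.79% and 1.1% of all genes. Its pathway genes numbered 2 in ovariectomized against control female ASC2, 0 and 4 by sex label in ASC1 and ASC2, 0 and 1 in castrated male against control female ASC1 and ASC2, and 5 for the castration effect. In the same order 1.83%, 0.305%, 6.93%, 1.31%, 1.1% and 2.13% of all genes were called. With no filter pathway genes numbered 3 and 7 in castrated against control male ASC1 and ASC2, 2 in ovariectomized against control female ASC2, 3 by sex label in ASC1, 4 and 5 in castrated male against control female ASC1 and ASC2, and 7 for the castration effect. The shares of all genes called were 1.36%, 2.8%, 1.24%, 0.271%, 1.19%, 1.02% and 1.52%, with 29846 genes tested. Library size only gave 1 member in castrated male against control female ASC2, beside 1.39% of all genes. It and robust estimation gave 0 pathway genes by sex label in ASC1, beside 0.305% and 0.273% of all genes.

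Of 26 ASC1 and ASC2 pairs of the same sex and letter, 7 correlated above 0.1 in their deviations from the group means (range -0.23 to 0.32). All 7 were control pairs. Of 15 control male and female pairs with the same letter and population, 8 correlated above 0.1. The letters were not taken as pairing in the main fit, and the source of these correlations was not tested. With the letter as a replicate block, members called between ASC2 and ASC1 of ovariectomized females numbered 3 (5 without it; Il13ra1 and Il6 were lost), and 8 of 11 called values stayed called. No paired analysis was possible because castrated or ovariectomized and control libraries share no letter, for comparisons between those. Genes under about 10 CPM (Il6ra, Il13ra2, Il6 and Lif) rested on few reads, so that small differences in them were not detectable at this depth.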
